A study of Mus musculus with 6 samples.

Results

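Interleukin-6 family genes were measured in mammosphere cultures of MMTV-Neu mice as 9 genes of 1 pathway: the ligands Il6, Il11, Lif and Clcf1, the receptor chains Il6st (gp130), Lifr and Osmr, the transcription factor Stat3 and the inhibitor Socs3. They were chosen by gene symbol, with 1 RefSeq transcript each, the one with the highest mean count among the rows that all 6 tables hold. All 9 were found among 19893 symbols and all 9 passed the filter on low counts. The mice are of the FvB strain and carry the Neu (HER2, ErbB2) oncogene behind the mouse mammary tumour virus promoter, which is active mainly in mammary epithelium. Early lesion (EL) spheres were grown from mammary glands at an age of 14 to 18 weeks with no tumour that could be felt, and primary tumour (PT) spheres came from mice with tumours that were older than 20 weeks. Both groups carry the transgene, and no group without it is part of the comparison. Cells of the digested tissue were kept for 7 days in low-adhesion plates in mammosphere medium. There are 3 libraries per group, and nothing in the labels says whether they came from separate mice, so p-values speak only of library-to-library spread, part or all of which may be technical.

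Most cytokines of this family share the signalling chain gp130. Il-6 and Il-11 first bind a receptor of their own (Il6ra, Il11ra1), which then pairs gp130 molecules. Lif acts through gp130 joined to Lifr, Clcf1 through the same pair together with Cntfr, and oncostatin M through gp130 joined to Osmr or Lifr. Janus kinases bound to these chains phosphorylate Stat3, which enters the nucleus and switches on genes that include its own inhibitor, Socs3. In the mammary gland this pathway is best known from involution after weaning, when Lif activates Stat3 in the epithelium and the milk-producing cells die.

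The labels call the cells of both groups breast cancer cells. Marker genes of cell types were read beside this label, but they cannot tell cancer cells from normal epithelium. The 10 luminal epithelial markers summed to between 2393 and 2458 CPM (counts scaled to a library of 1000000) in EL and between 8924 and 9240 in PT, and all 10 were higher in PT. The 12 fibroblast markers summed to between 71981 and 76773 CPM in EL and between 734 and 874 in PT, and all 12 were lower in PT (median log2 fold change -6.38). All 10 endothelial and all 6 pericyte markers were also lower (medians -5.67 and -4.12), while 8 of 9 tested macrophage markers were higher (median 1.06). Of 7 adipocyte markers all 4 tested were lower (median -2.75). Of 8 basal epithelial markers 5 were lower and 3 higher (median -1.67). Their sum lay between 483 and 532 CPM in EL and was higher in PT, between 604 and 637. Krt5 was at 52.5 CPM on average in EL and 0.143 in PT, while Krt14, Krt17 and Oxtr were higher in PT. A tissue label of the EL samples names lung beside mammary; the 8 lung epithelial markers summed to between 15.7 and 17.7 CPM in EL and between 121 and 132 in PT. Of the 3 tested, Sftpd (8.07 and 72.1 CPM on average) and Foxj1 (7.24 and 53.1) were higher in PT and Ager was not called, while Sftpa1 and Scgb1a1 had 0 counts in both groups and Sftpb, Sftpc and Scgb3a1 had 1, 9 and 3 over the EL libraries. Counts summed to between 69759793 and 85126630 per library, and to between 43278382 and 51117359 over the chosen transcripts. EL replicate 1 stood apart from the other EL libraries, with a mean chi-square per gene of 13.9 and 11.0 against them, where it was 4.60 between those libraries and between 3.05 and 3.87 within PT. Without it, 7 of the 9 genes were still called, and the log2 fold change was -5.27 for Il6, -6.34 for Il11, -2.47 for Socs3, -2.16 for Lifr, -1.06 for Il6st, -0.57 for Osmr and 1.78 for Lif. In such bulk samples, fewer cells of a type and less RNA per cell cannot be told apart, and which cells made each transcript was not tested.

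Lif was the only one of the 9 genes that rose in PT spheres, 3.51-fold, while Il11 and Il6 fell 68.8-fold and 33.6-fold and Socs3, Lifr, Il6st and Osmr fell 5.16-fold, 4.23-fold, 2.05-fold and 1.44-fold. Stat3 and Clcf1 did not pass the test. With edgeR's quasi-likelihood test and a Benjamini-Hochberg adjusted p under 0.05, 1 gene was higher and 6 were lower in PT, and the EL and PT values of 7 did not overlap. Among all 13844 genes tested, 80.7% were called, 39.9% higher and 40.8% lower, and the groups did not overlap for 82.7%, so a call alone does not set these genes apart. Fold changes over 2-fold were rarer, at 28.8% of all genes, and 6 of the 9 had one. Against a 2-fold minimum, edgeR's test called 5 of the 9 and 24.6% of all genes. The median log2 fold change was -1.04 over the 9 genes and 0.00 over all genes. Fibroblast, endothelial, pericyte, tested adipocyte and 5 of 8 basal epithelial markers were lower in PT, as Il6, Il11, Socs3 and the receptor chains were. Luminal markers, 8 of 9 tested macrophage, 3 of 8 basal epithelial and 2 of 3 tested lung epithelial markers were higher, as Lif was. The part of any of these cell types in the changes was not tested. Called genes were 49.5% higher under the trimmed-mean (TMM) scaling of libraries that is used here and 65.8% higher with library totals alone, which shifted all log2 fold changes by a median of 0.25. With library totals alone all 9 genes were called, 3 of them higher, beside 86.8% of all genes called and 57.1% higher.

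**Figure D1:**
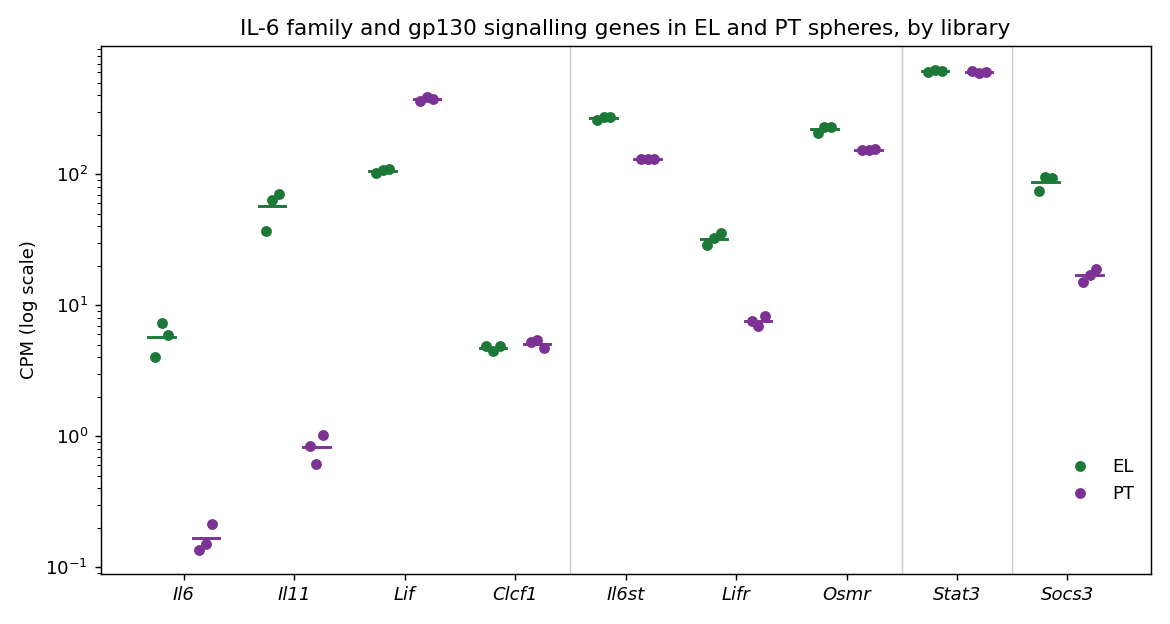
CPM of the 9 genes on a log axis, with 1 point per library, a bar at the mean of the 3 libraries of a group, EL in green and PT in purple. Lif is the gene with PT points above EL points and no overlap, while Il6 and Il11 lie lowest in PT, at 0.167 and 0.827 CPM on average.

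The interleukin-6 gene Il6 (mouse chromosome 5, 30013114 to 30019975, GRCm38) encodes the cytokine that gave the family its name. It stood at 4.03, 7.28 and 5.93 CPM in EL replicates 1 to 3 and at 0.137, 0.150 and 0.216 CPM in PT replicates 1 to 3. Every EL library was far above every PT library, and the PT values rest on 7, 8 and 12 counts against 164, 289 and 238. The log2 fold change was -5.07 (SE 0.30; edgeR adjusted p = 3.31e-09).

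Il11 (chromosome 7, 4772373 to 4782907), a cytokine known from bone and from fibrosis, had the largest change of the 9. It stood at 37.2, 63.6 and 71.1 CPM in EL and at 0.839, 0.618 and 1.02 CPM in PT. The groups lay far apart, although EL replicate 1 was at 0.552 times the mean of the other EL libraries. The log2 fold change was -6.10 (SE 0.28; edgeR adjusted p = 3.14e-10), and 97.6% of all tested genes changed by less. Il11 gave -5.88 on another of its transcripts, which shares reads with the chosen one.

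Lif (chromosome 11, 4257568 to 4272514), leukaemia inhibitory factor, went the other way. It was at 102, 108 and 110.2 CPM in EL and at 361, 391 and 373 CPM in PT. The coefficient of variation was 4.08% in EL and 4.09% in PT, and every PT library was above every EL library. The log2 fold change was 1.81 (SE 0.04; edgeR adjusted p = 1.53e-13). A further Lif transcript with another start, which encodes 203 residues where the chosen one encodes 158, had counts 0.992 times those of the chosen one in EL and 0.991 times in PT, so both starts cannot be told apart in these counts.

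Clcf1 (chromosome 19, 4214238 to 4223505), cardiotrophin-like cytokine factor, was at 4.94, 4.48 and 4.88 CPM in EL and at 5.21, 5.39 and 4.74 CPM in PT. The groups overlapped. The log2 fold change was 0.10 (95% interval -0.11 to 0.32; edgeR adjusted p = 0.362), and with library totals alone it was 0.35 (edgeR adjusted p = 0.00541).

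Bases upstream of the ligand genes are shown because Il6 and Il11 fell together while Lif rose, so that a reader can compare their start regions. Each line holds the 250 bases before a RefSeq transcript start, 5′ to 3′ on the strand of the gene, from the GRCm38.p6 promoter table of RefSeq, which matched 8 of the 9 genes. The windows are chr5:30012864-30013113 on the plus strand for Il6, chr7:4778142-4778391 on the minus strand for the start of the chosen Il11 transcript, and chr11:4257318-4257567 on the plus strand for the upstream start of Lif. Capitals mark matches, on either strand, to AP-1 (TGANTCA), C/EBP (TTGNNCAA) or NF-kB (GGG and TTTCC with 2 bases of any kind between).
Il6: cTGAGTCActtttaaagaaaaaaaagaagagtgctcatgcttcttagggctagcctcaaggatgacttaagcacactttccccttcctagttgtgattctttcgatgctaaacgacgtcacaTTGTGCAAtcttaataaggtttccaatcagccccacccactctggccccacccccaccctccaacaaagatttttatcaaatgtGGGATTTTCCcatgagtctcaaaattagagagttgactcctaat
Il11: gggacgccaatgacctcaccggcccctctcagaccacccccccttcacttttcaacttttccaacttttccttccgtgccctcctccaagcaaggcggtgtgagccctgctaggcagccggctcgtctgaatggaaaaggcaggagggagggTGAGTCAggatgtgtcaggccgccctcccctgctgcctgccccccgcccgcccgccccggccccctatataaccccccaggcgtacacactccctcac
Lif: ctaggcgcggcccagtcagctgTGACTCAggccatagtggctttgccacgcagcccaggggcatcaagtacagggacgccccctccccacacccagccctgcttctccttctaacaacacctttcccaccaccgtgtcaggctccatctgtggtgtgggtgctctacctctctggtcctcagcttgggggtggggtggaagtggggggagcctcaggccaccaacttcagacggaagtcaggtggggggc

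An AP-1 match stood in each of the 3 windows shown. The table also holds a window for the upstream start of Il11, which had no match to any motif searched, and for Lif it holds only the start of the transcript that was not chosen. It began 249 bases before the start in Il6, 98 in Il11 and 228 in Lif. The Il6 window also held a C/EBP match, from 128 bases before the start, and an NF-kB match, from 44. Of 32851 windows of the same length in the table, 6.75% held an AP-1 match, 5.65% a C/EBP match and 1.41% an NF-kB match. These letters are a description and not a measure of binding.

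The make-up of the transcripts of the ligands Il6, Il11, Lif and Clcf1 differed between the groups. Levels per transcript length (CPM per kilobase) use the GENCODE length of the chosen transcript, which may differ from the models the authors counted. The chosen Il11 transcript has 1949 bases, and another of 990 bases had 0.959 times its counts in EL. Stat3 was taken at 6042 bases, while a transcript of 2927 bases had nearly the same counts in PT. The shares and the order of genes given below therefore hold for the chosen lengths only. Of the summed level per length of the 4 ligands, Lif made up 51.5%, 40.8% and 39.6% in the EL libraries and 96.6%, 96.8% and 96.8% in the PT libraries. Il11 made up between 36.6% and 49.8% in EL and between 0.298% and 0.518% in PT. The sum itself was 65.1 ± 11.4 CPM per kilobase in EL and 102 ± 4.05 in PT (n = 3 each, SD). It leaves out Ctf1, a further ligand of the family. On a transcript of 784 bases, Ctf1 stood at 5.78 ± 1.06 CPM per kilobase in EL and 13.5 ± 0.906 in PT. In PT that lay below Lif and above Il11, Il6 and Clcf1, so the share of Lif would be lower with Ctf1 in the sum.

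In EL, levels per length ran from Stat3 (102 ± 1.66 CPM per kilobase; SD, n = 3) through Osmr (40.3 ± 2.27), Socs3 (34.5 ± 4.37), Il6st (30.9 ± 0.794), Il11 (29.4 ± 9.15) and Lif (28.1 ± 1.15) to Lifr (9.53 ± 1.03), Il6 (5.03 ± 1.43) and Clcf1 (2.58 ± 0.135). Socs3 and Il6st, Il6st and Il11, and Il11 and Lif overlapped between libraries, and the other neighbours in this order did not. In PT, Stat3 (100.2 ± 1.28) and Lif (98.7 ± 4.04) came highest and overlapped. Osmr (28.0 ± 0.228), Il6st (15.1 ± 0.0194), Socs3 (6.67 ± 0.785), Clcf1 (2.77 ± 0.181), Lifr (2.25 ± 0.199), Il11 (0.424 ± 0.104) and Il6 (0.147 ± 0.0371) followed without overlap between neighbours.

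**Figure D2:**
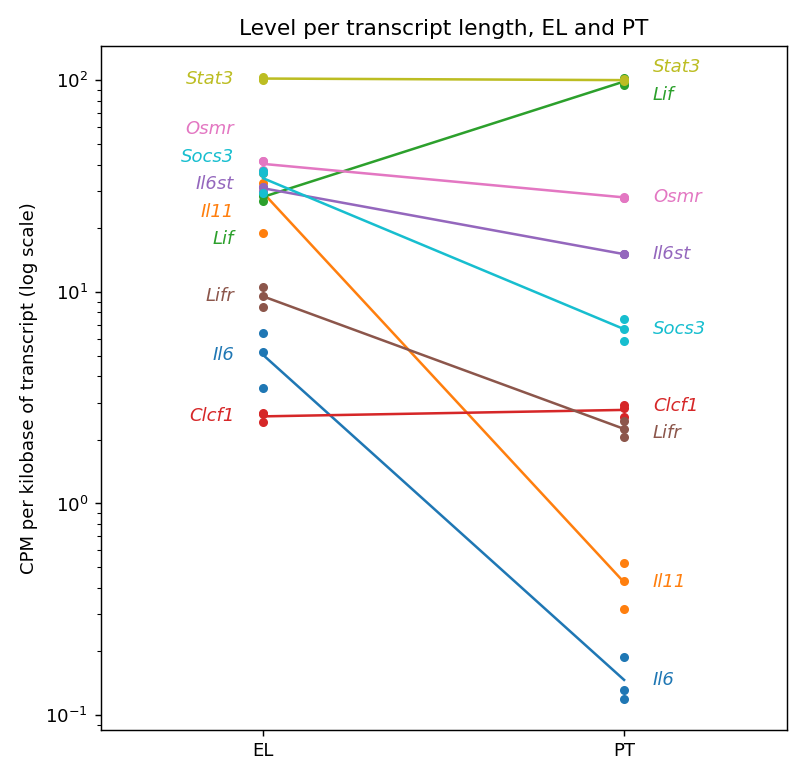
Level of each gene in EL and PT per length of its chosen transcript, in CPM per kilobase on a log axis. There is 1 point per library, and lines join the group means. Another transcript length would move a gene up or down. Lif ends beside Stat3 in PT, at 98.7 and 100.2 CPM per kilobase, while the lines of Il11 and Il6 fall to 0.424 and 0.147.

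All 3 receptor chains fell in PT, by unequal amounts. Il6st (chromosome 13, 112464070 to 112506860), the gp130 chain that the family's ligands other than Il-31 need, was at 260.3, 272 and 273 CPM in EL and at 131, 131 and 131 CPM in PT. The groups did not overlap (log2 fold change -1.04, SE 0.03; edgeR adjusted p = 2.59e-12). Lifr (chromosome 15, 7090610 to 7197489), the chain that Lif and Clcf1 need beside gp130, was at 28.7, 32.6 and 35.7 CPM in EL and at 7.62, 6.97 and 8.32 in PT. Its log2 fold change was -2.08 (SE 0.09; edgeR adjusted p = 9.15e-11). The transcript of the Lif receptor was thus lower in the spheres with more Lif transcript.

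Osmr (chromosome 15, 6813568 to 6874968), the oncostatin M receptor chain, changed least of the 3 chains. It was at 207, 229 and 228 CPM in EL and at 153, 153 and 155 CPM in PT. No PT library reached the lowest EL library (log2 fold change -0.53, SE 0.04; edgeR adjusted p = 4.14e-08). With library totals alone the value was -0.28 and the call remained.

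Ratios within a library do not depend on how libraries are scaled. With 0.5 added to each count, Osmr had 7.21, 7.02 and 6.39 counts for each Lifr count in EL and 20.0, 22.0 and 18.6 in PT, a 2.94-fold higher ratio in PT. Its log2 mean was 2.78 ± 0.09 in the EL libraries and 4.33 ± 0.12 in the PT libraries (n = 3 each, SD; exact two-sided permutation p = 0.1, the smallest that 3 libraries against 3 allow). The log2 ratio of Osmr to Il6st went from -0.28 ± 0.05 to 0.23 ± 0.01 and that of Lifr to Il6st from -3.06 ± 0.12 to -4.10 ± 0.13 (n = 3 each; exact permutation p = 0.1 for each, unadjusted over 4 ratios). The groups did not overlap for any of these 3 ratios.

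**Figure D3:**
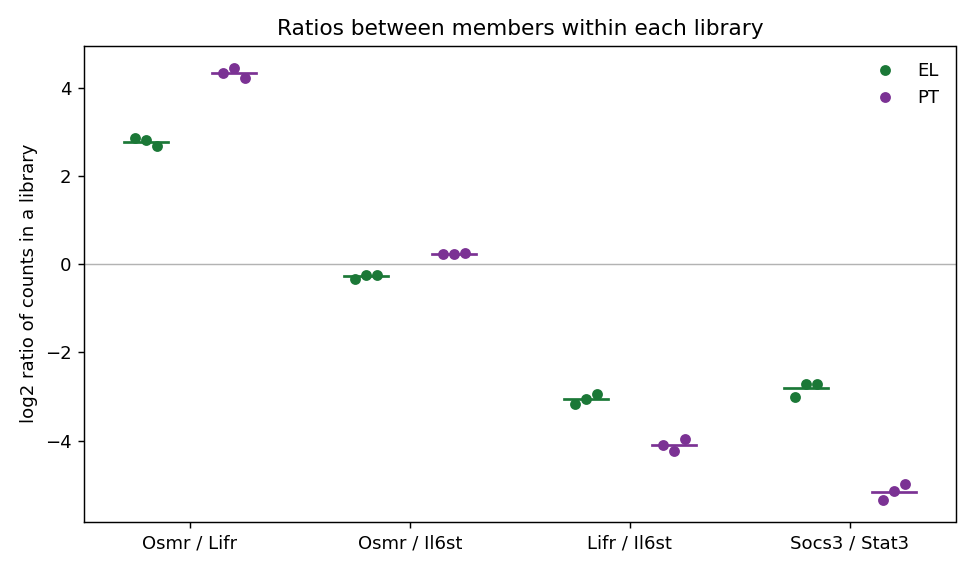
Log2 ratio of the counts of 2 genes in the same library, with 1 point per library and a bar at the group mean. Osmr rises against Lifr, from a mean of 2.78 to 4.33, and Socs3 falls against Stat3, from -2.82 to -5.16, with no overlap between EL and PT.

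Stat3 (chromosome 11, 100886806 to 100939594), which carries the gp130 signal to the nucleus, was at 607, 627 and 615 CPM in EL and at 613, 598 and 606 CPM in PT. The groups overlapped, and the log2 fold change was -0.02 (95% interval -0.09 to 0.04; edgeR adjusted p = 0.452). With library totals alone Stat3 was called higher in PT, at 0.22 (SE 0.03; edgeR adjusted p = 9.47e-06), so its direction depends on the scaling. The chosen transcript encodes the 722-residue form, and rows for the 770-residue and 769-residue forms, absent from the table of EL replicate 1, differed from it by at most 6 counts in any other library, so the forms cannot be told apart. Phosphorylation of Stat3 was not measured.

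Socs3 (chromosome 11, 117966079 to 117970336), which Stat3 induces and which blocks gp130 and its kinases, fell, while Stat3 itself was not called. It was at 75.1, 95.2 and 93.5 CPM in EL and at 15.0, 17.0 and 19.0 CPM in PT. Every PT library was below every EL library (log2 fold change -2.37, SE 0.09; edgeR adjusted p = 5.74e-11). Per Stat3 count, Socs3 was 5.07-fold lower in PT, with a log2 ratio of -2.82 ± 0.17 for EL and -5.16 ± 0.18 for PT (n = 3 each, SD; exact two-sided permutation p = 0.1, the smallest possible).

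The Socs3 window is shown because it alone of the windows of these genes held the palindrome that STAT dimers are known to bind, written TTCNNNGAA. It covers chr11:117969367-117969616, read on the minus strand, with the match in capitals.
Socs3: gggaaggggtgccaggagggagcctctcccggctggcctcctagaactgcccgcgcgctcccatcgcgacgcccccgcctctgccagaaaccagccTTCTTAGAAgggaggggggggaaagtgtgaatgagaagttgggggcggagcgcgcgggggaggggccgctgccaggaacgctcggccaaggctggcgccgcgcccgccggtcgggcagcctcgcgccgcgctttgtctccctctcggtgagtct

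The match began 154 bases before the RefSeq start at 117969366. That start lies inside the gene span given above, and the counted transcript begins at 117969186 in GENCODE. The pattern reads the same on both strands, and 7.02% of the 32851 windows held such a match. A TATA box was searched only as the letters TATAAA, which stood in 12.4% of all windows and in none of these genes' windows. Other forms were not searched, such as the TATATAA that the Il11 window shown above holds. A window without a match says only that these letters are not in it.

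Of 7 other ligand genes of the family reported here, 4 were tested, of which 2 were higher and 2 were not called (median log2 fold change 0.76, against 0.00 over all genes). Ctf1, cardiotrophin-1, rose from 4.53 ± 0.829 to 10.6 ± 0.710 CPM (a log2 fold change of 1.22, SE 0.11). Ebi3, a chain of interleukin-27, rests on 12, 5 and 13 counts in the EL libraries against 23, 23 and 49 in PT (log2 fold change 1.24, SE 0.41; edgeR adjusted p = 0.0137). That call ended without EL replicate 2 (edgeR adjusted p = 0.0598) or without PT replicate 3 (edgeR adjusted p = 0.0832).

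Osm, the ligand of Osmr, rests on 17, 16 and 16 EL counts and on 22, 28 and 31 PT counts (log2 fold change 0.31, SE 0.26; edgeR adjusted p = 0.282). Per length, Osm stood at 0.179 CPM per kilobase in EL, below the lowest-ranked of the 9 genes there. In PT its mean was 0.222, above the mean of Il6 at 0.147. Cntf, ciliary neurotrophic factor, was not called either, at 0.996 ± 0.159 and 0.845 ± 0.168 CPM (edgeR adjusted p = 0.347). Counts of Il27 summed to 3 in EL and to 6 in PT, and Il31 had 0 in every library. Ctf2, absent from the table of EL replicate 1, had between 2 and 10 counts in the other libraries.

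The receptor chains of the family outside the 9 genes did not move together. Of 6 such chains 4 were tested, of which 1 was higher and 3 were lower (median log2 fold change -1.75). Il6ra rose from 7.15, 8.71 and 6.93 CPM in EL to 14.3, 15.8 and 15.4 CPM in PT (log2 fold change 1.00, SE 0.09; edgeR adjusted p = 2.06e-07), while its ligand Il6 fell. Il11ra1 fell from 80.9 ± 4.20 to 28.2 ± 0.825 CPM (a log2 fold change of -1.52, SE 0.045). Counts of its near copy Il11ra2 summed to 28 in EL and to 14 in PT, and both genes may share reads. Cntfr, the receptor of Cntf and also of Clcf1, fell from 11.5 ± 0.565 to 2.91 ± 0.257 CPM (a log2 fold change of -1.99, SE 0.09). Il27ra fell from 6.27 ± 0.670 to 0.206 ± 0.0663 CPM (a log2 fold change of -4.91, SE 0.20). Il31ra had 1 count in all.

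Janus kinases and other STATs were split, with 3 higher, 4 lower and 1 not called of 8 tested among the 9 reported here (median log2 fold change -0.20). Jak2 and Jak1, the kinases that gp130 receptors use most, fell by 1.10 (SE 0.045) and by 0.46 (SE 0.03) on the log2 scale. Stat5b, which prolactin and growth hormone activate, rose from 48.1 ± 1.17 to 72.4 ± 1.36 CPM (a log2 fold change of 0.59, SE 0.035). Its close relative Stat5a rose from 24.6 ± 1.59 to 40.3 ± 2.13 CPM (a log2 fold change of 0.71, SE 0.06), and reads of both may be shared in part. Stat6 was the gene not called (log2 fold change 0.06; edgeR adjusted p = 0.0717). It lay near the threshold and was called under 5 of the alternatives, among them library totals alone, at 0.31.

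Negative regulators were mostly higher in PT, with 12 higher and 3 lower of 15 tested, beside 39.9% higher and 40.8% lower among all genes. Their median log2 fold change was 0.27, and some of the calls were small. Socs4 (0.16) overlapped between the groups and was not called under several alternatives, DESeq2 among them. Genes of the Socs family went opposite ways. Socs1 fell from 8.25, 8.96 and 7.92 CPM in EL to 1.13, 1.18 and 1.31 CPM in PT (log2 fold change -2.79, SE 0.12; edgeR adjusted p = 9.15e-11), as Socs3 did. Socs2 rose from 10.3, 10.5 and 11.7 CPM to 107, 107 and 103 CPM, or 9.76-fold (log2 fold change 3.29, SE 0.05; edgeR adjusted p = 3.18e-15). Cish, like Socs2 known as a target of Stat5, rose from 3.69 ± 0.705 to 13.2 ± 0.772 CPM. The phosphatase gene Ptpn6 (SHP-1), best known from blood cells, rose from 12.1 ± 0.450 to 28.3 ± 0.312 CPM, beside the macrophage markers (median 1.06); their part in this rise was not tested.

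Known Stat3 target and acute phase genes did not follow 1 direction. Of 24 tested among 26, 8 were higher and 16 lower, and with library totals alone 8 and 10. The median log2 fold change was -0.30. The acute phase genes Saa3 and Hp (haptoglobin) fell 78.8-fold and 67.7-fold. Saa3 stood at 568, 565 and 762 CPM in EL and at 8.13, 7.92 and 7.99 in PT. Timp1, an inhibitor of metalloproteinases, fell from 842 ± 99.7 to 21.4 ± 1.37 CPM (a log2 fold change of -5.29, SE 0.09). Hif1a, the hypoxia factor, fell from 407 ± 14.5 to 121 ± 1.44 CPM. In the other direction, and named after their values were seen, Lcn2 and the survival gene Bcl2l1 rose. Lcn2 went from 2940 ± 114 to 8281 ± 154 CPM (log2 fold change 1.49, SE 0.04). Bcl2l1 stood at 99.6, 91.6 and 93.8 CPM in EL and at 258, 253 and 248 CPM in PT (log2 fold change 1.41, SE 0.04). With Lcn2 in it, the summed level of the list was between 6817 and 7095 CPM in EL and between 9991 and 10319 in PT. All 12 fibroblast markers were lower in PT beside these changes, and their part in them was not tested.

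**Figure D4:**
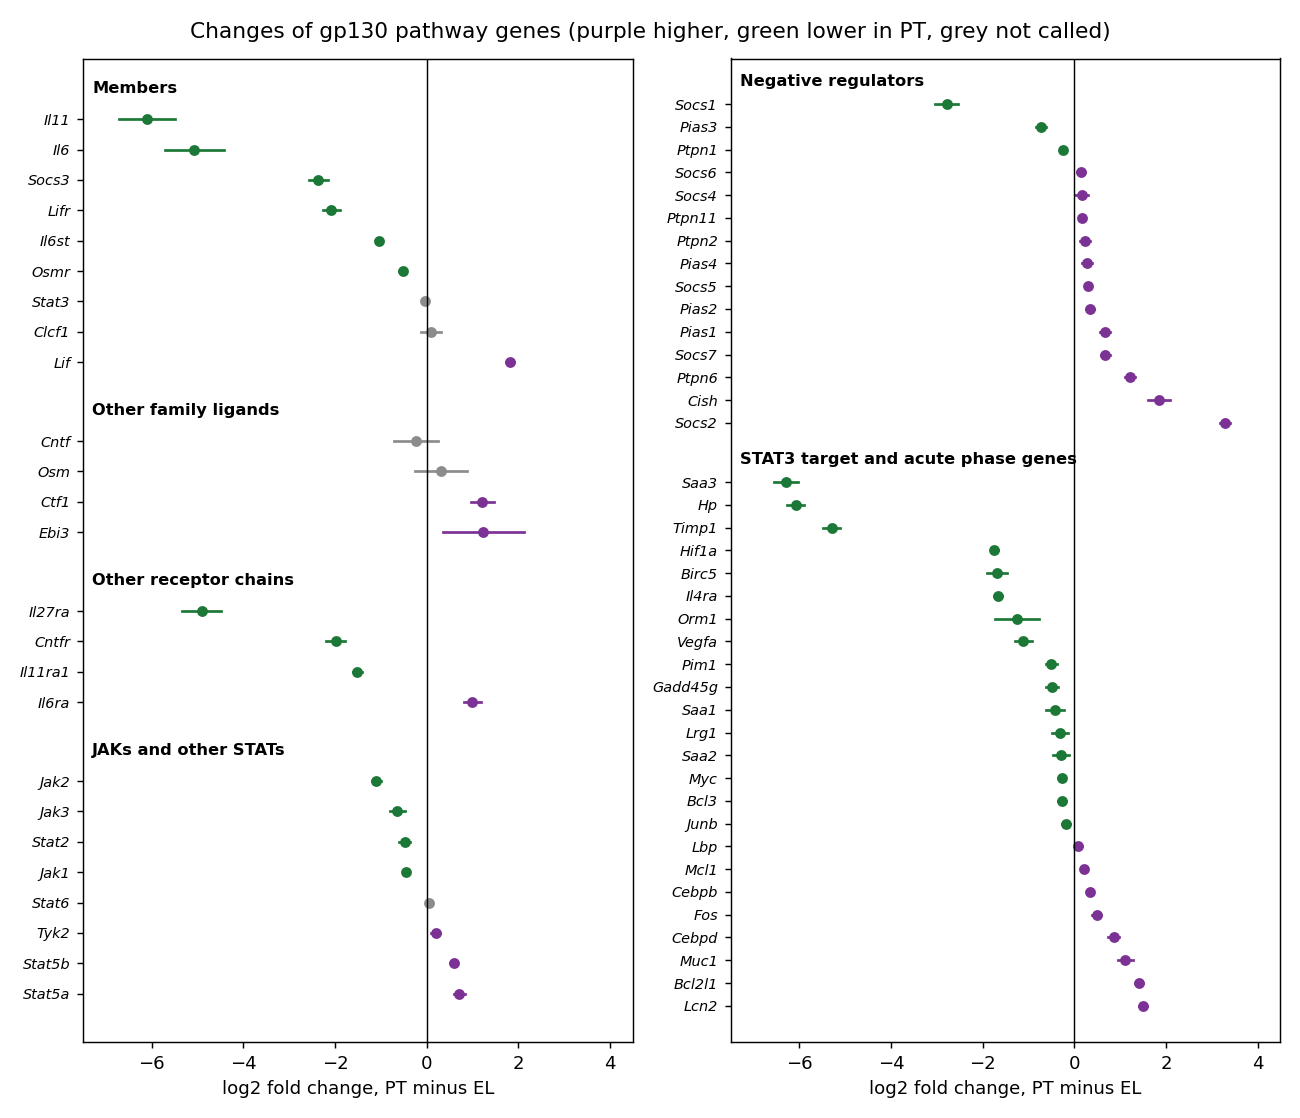
Log2 fold change, PT minus EL, of the 9 genes and of the tested genes reported from 5 pathway lists, with lines for the 95% interval, purple for genes called higher, green for lower and grey for not called. Socs2 stands far to the right at 3.29, and Il11, Il6, Saa3, Hp, Timp1 and Il27ra stand left of -4.

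For each of the 9 genes, the 3 most alike were sought among 11853 genes with a mean count of at least 100, by the distance between log2 CPM values centred on the mean of the 6 libraries. With 6 libraries in 2 groups, this mostly finds genes with a similar fold change. Il6 was nearest to Lin7a (distance 0.353), P4ha1 (0.484) and Fgf7 (0.494), and Il11 to Gsg1l (0.564), Tshz2 (0.609) and Cthrc1 (0.625). Lif was nearer to its neighbours Ltbp2 (0.0499), Prom2 (0.0671) and Vsig10 (0.0723). Socs3 was nearest to Ankrd37 (0.149), Slc7a2 (0.178) and Slc41a2 (0.200), and Lifr to Sp6 (0.181), Ctsf (0.217) and Rgs16 (0.222). The neighbours were Lman1, Pcyt1a and Prrc1 for Il6st, Akap11, Dnajc13 and Atp11b for Osmr, Prdm2, Usp7 and Cops6 for Stat3, and Tmem179b, Lsm6 and Klf16 for Clcf1.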

How the data were processed

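RNA was sequenced from 3 EL and 3 PT sphere libraries. The deposited files hold raw counts per RefSeq transcript, 1 file per library, made by the authors. Per the submitters' processing notes, STAR, featureCounts and DESeq2 were used with the builds mm10 and hg19; for versions, parameters, strandedness and the role of each build, the labels give nothing (not given in the sources used here). EL replicate 1 has an incomplete table, with 27664 of 33068 rows, so the comparison used rows that all 6 tables hold. No row lacks a gene name.

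Genes were kept by filterByExpr, scaled by TMM factors and tested with edgeR 4.0.16 in R 4.3.3 (limma 3.58.1 and DESeq2 1.42.0 for alternatives), with Benjamini-Hochberg adjustment over 13844 genes. CPM values use the TMM-scaled totals. SEs come from the quasi-likelihood F statistic. Each pair of replicates differed by more than sampling noise. Genes that overlap or are near copies cannot be told apart. Lengths come from GENCODE M21 and positions from RefSeq (GRCm38.p6), which matched 98.7% of transcripts.

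The members and gene lists were chosen with earlier results of these data known. From the pathway lists, 2 genes are not reported here and are left out of their counts and medians. The rule names all 9 genes, up to 4 genes of each pathway list with the smallest p-value, ligands and receptor chains with few or 0 counts, and the 3 genes most like each of the 9. Alternatives tried were DESeq2, limma-voom, other scaling (RLE, upper quartile, or library totals alone), no filter, a mean count of at least 20, each library left out, a replicate block, summed or other transcripts, the 5 complete libraries and a 2-fold minimum.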

Additional observations from a re-analysis of the deposited data

How the results depend on the processing

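Of 9 genes, 7 were called under every alternative but library totals alone and the 2-fold minimum. With library totals alone all 9 were called (86.8% of all genes), and the number higher in PT went from 1 to 3 (57.1% of all genes were higher), since Stat3 (0.22, reversed from -0.02) and Clcf1 (0.35) joined Lif. Against a 2-fold minimum 5 were called, 1 higher and 4 lower (24.6% of all genes were called). With each library left out in turn it remained 7. Over 147 fold changes of the 9 genes under the alternatives other than the 2-fold minimum, 145 kept direction and call. Among 55 pathway genes outside the 9, library totals alone also turned Ptpn1 from -0.24 to 0.0021 and Junb from -0.18 to 0.063; the shift of all fold changes by 0.25 is that setting's own. The 3 replicate numbers that the groups share did not pair the libraries: deviations from the group means correlated by 0.0979, 0.0770 and 0.0300 for equal numbers over 11853 genes, and not every library correlated best with its own number. With the replicate block, 7 of the 9 and 11203 instead of 11173 genes were called. Il6 in PT rests on 27 counts, which limits its fold change more than that of the other 8.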

Other observations

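Spread between replicates was unequal among the 9 genes. The coefficient of variation in EL was 28.4% for Il6 and 31.1% for Il11, against 1.63% for Stat3 and 4.08% for Lif. EL replicate 1, whose table is incomplete, was the lowest EL library for each of the 9 genes except Clcf1. It stood at 0.610 and 0.552 times the mean of the other EL libraries for Il6 and Il11, and at 0.796 times for Socs3. For Lifr it was at 0.841 times, and for Osmr, Lif, Il6st and Stat3 at 0.905 to 0.977 times. Without it, the log2 fold changes of these genes kept their sign and call.

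Lifr has 2 transcripts in the tables. The chosen one encodes the 1092-residue receptor, and a shorter one ends earlier and encodes 719 residues, the length class of the soluble receptor known from mice. Counts of the shorter one were 36.4%, 38.5% and 37.8% of those of the longer one in EL and 43.5%, 47.0% and 39.1% in PT. The groups did not overlap, but the PT libraries were spread over a wider range than the gap between the groups (exact two-sided permutation p = 0.1, the smallest possible). Reads of shared exons count for both transcripts, so these shares do not measure isoform abundance.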
